A study of Mus musculus with 6 samples.

Results

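The 10 genes described here encode the 5 subunits of the transcription factor NF-kappaB (Nfkb1, Nfkb2, Rel, Rela and Relb), 3 of the IkB proteins that bind those subunits (Nfkbia, Nfkbie and Nfkbid), and the ubiquitin-editing proteins Tnfaip3 and Birc3. They were taken by name, and all 10 were found among the 29370 genes of the deposited count matrix. CD8+ T cells are the cytotoxic lymphocytes, and the study set out to learn what the saturated fatty acid palmitate does to them. RNA was sequenced from 3 libraries of palmitate-treated cells (100 µM, 48 h) and from 3 libraries of control cells at the same 48 h. Both groups were wild-type (WT) mouse CD8+ T cells from pancreas, spleen and lymph nodes, grown in complete T cell medium. The vehicle of the control cells, whether the cells were activated, and the age and number of the mice are not given in the sources used here. Gene counts summed to 16724588 to 24777611 in the palmitate libraries and to 26042768 to 29362276 in the control libraries, and the smallest count of any of the 10 genes in a library was 285.

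In resting cells NF-kappaB dimers are held in the cytoplasm by IkB proteins. Signals from the T cell receptor, from receptors of the tumour necrosis factor (TNF) family or from Toll-like receptors switch on the IkB kinase (IKK) complex, which marks IkB for destruction and frees the dimers to enter the nucleus. Several of the genes they switch on, among them Nfkbia and Tnfaip3, feed back to end the signal. In CD8+ T cells the pathway is known for its part in activation, survival and cytokine production.

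The labelled cell type was checked against marker genes. The 8 CD8 T cell markers, among them Cd3e, Cd8a and Cd8b1, summed to 1916 to 2102 counts scaled to a common total (CPM) in the palmitate libraries and to 1500 to 1723 CPM in the control libraries. Of the 8 markers, 6 were called higher in palmitate by the test described below. Thy1 and Cd2 were not, with Thy1 at 357 to 404 CPM with palmitate and 424 to 430.3 CPM in control. The B cell list (10 genes, 7 of them tested, Cd79a called higher) summed to 17.4 to 26.5 CPM with palmitate and 14.3 to 17.4 CPM in control, and the myeloid list (12 genes, 4 of them tested) to 5.32 to 6.2 CPM with palmitate and 3.45 to 6.02 CPM in control, with S100a8, S100a9 and Elane at 0 in every library. The NK cell list (5 genes, 4 tested, none called) summed to 145 to 163 CPM with palmitate and 169 to 187 CPM in control. Nearly all of that sum was Eomes, which CD8 T cells also express, at 141 to 161 CPM with palmitate and 166 to 185 CPM in control (adjusted p = 0.0635), and no other NK gene exceeded 1.89 CPM in any library. The part of other cell types in the results below was not tested, and in these bulk libraries fewer cells of a type and less RNA per cell cannot be told apart.

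Many of these genes are known as targets of NF-kappaB themselves, so their promoters were read for the kappaB consensus, a 10-base motif that NF-kappaB dimers bind. RefSeq windows on build GRCm38.p6 ran from 250 bases before to 50 bases after each start, and both strands were searched. Of the 8 genes with an entry, 6 held at least 1 match (Nfkb2, Rel, Nfkbia, Nfkbie, Nfkbid and Tnfaip3), and Rela and Birc3 held none. Among all 27025 genes with an entry, 9.55% held a match in some window. Counted by window, 61.5% of the 13 windows of the 8 genes held a match, beside 8.46% of all 32851 windows. Nfkb1 and Relb had no entry. The 4 windows below are shown because they belong to the feedback gene with the largest difference between the groups (Tnfaip3), the classical IkB gene (Nfkbia), the subunit gene that varied most between libraries (Rel), and the feedback gene on the low side in palmitate that held no match (Birc3). All 4 lie on the minus strand and are written 5′ to 3′ along the gene, and capitals mark bases inside a match. Those in Tnfaip3 begin 125 and 12 bases before the start, the Nfkbia match begins 29 bases before it, and Rel has overlapping matches that begin 92 and 91 bases before it. A match is a description of the letters and no evidence of binding in these cells.
Tnfaip3 promoter, chr10:19015361-19015660: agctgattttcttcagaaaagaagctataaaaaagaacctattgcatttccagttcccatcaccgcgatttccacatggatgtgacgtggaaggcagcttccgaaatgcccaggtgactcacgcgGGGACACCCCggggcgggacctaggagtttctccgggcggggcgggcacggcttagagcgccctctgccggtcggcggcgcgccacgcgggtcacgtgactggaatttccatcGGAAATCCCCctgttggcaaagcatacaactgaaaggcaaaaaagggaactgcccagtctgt
Nfkbia promoter, chr12:55492598-55492897: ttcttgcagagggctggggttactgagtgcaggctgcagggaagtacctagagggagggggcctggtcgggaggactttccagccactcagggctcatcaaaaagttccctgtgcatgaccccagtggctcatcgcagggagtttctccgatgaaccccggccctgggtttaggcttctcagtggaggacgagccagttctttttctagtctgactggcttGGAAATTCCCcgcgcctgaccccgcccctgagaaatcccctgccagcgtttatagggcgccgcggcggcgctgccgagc
Rel promoter, chr11:23770920-23771219: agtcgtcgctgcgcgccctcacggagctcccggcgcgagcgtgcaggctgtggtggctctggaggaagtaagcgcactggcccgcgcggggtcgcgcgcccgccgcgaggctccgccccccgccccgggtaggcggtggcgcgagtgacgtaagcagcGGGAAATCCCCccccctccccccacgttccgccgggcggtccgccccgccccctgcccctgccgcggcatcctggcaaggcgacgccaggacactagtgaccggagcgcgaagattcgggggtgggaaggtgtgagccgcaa
Birc3 promoter, chr9:7873121-7873420: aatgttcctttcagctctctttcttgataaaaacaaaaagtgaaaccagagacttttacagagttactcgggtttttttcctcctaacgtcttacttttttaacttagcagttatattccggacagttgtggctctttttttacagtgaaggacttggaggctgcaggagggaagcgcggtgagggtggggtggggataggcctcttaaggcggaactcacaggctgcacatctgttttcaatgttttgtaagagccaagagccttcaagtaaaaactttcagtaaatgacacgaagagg

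Levels of the 10 genes were first compared on a scale that corrects for transcript length, the sum of the authors' TPM values over each gene's transcripts. Nfkb1, which encodes the precursor of the p50 subunit, was the highest of the 10 in every library, with 169.5, 233 and 190.3 TPM in palmitate libraries 1 to 3 against 195, 246 and 223 TPM in control libraries 1 to 3. Next came Birc3 at 112 to 134 TPM and Nfkbia at 96 to 137 TPM over the 6 libraries, and their ranges overlapped. Nfkb2 (49.1 to 61.9 TPM) and Tnfaip3 (35 to 78.1 TPM) followed with overlapping ranges. Nfkbid (24.8 to 41.9 TPM), Rela (23 to 32.4 TPM), Relb (17 to 25.5 TPM) and Rel (15.4 to 32.7 TPM) overlapped one another. Nfkbie was the lowest in every library, at 9.32 to 11.8 TPM.

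The question for each gene was whether its RNA differed between palmitate and control cells by more than the libraries of a group differed among themselves. Counts were tested with edgeR's quasi-likelihood test, with p-values adjusted by Benjamini-Hochberg over the 12068 genes that passed its filter on low counts, and "called" means an adjusted p under 0.05. All 10 genes passed the filter and none was called (0 of 10), while 22.9% of all genes tested were called (11.1% higher and 11.7% lower in palmitate). At an unadjusted p under 0.05 there were 3 of the 10, Relb and Tnfaip3 on the high side and Birc3 on the low side, beside 37.8% of all genes (18.6% higher and 19.1% lower). The alternative tools called 1 of the 10 (DESeq2, Tnfaip3) and 0 of the 10 (limma-voom), beside 28.2% and 22.0% of all genes. On gene sums of the transcript reads edgeR called 0 of the 10, beside 25.8% of all genes, and with the replicate block described next 4 of the 10, beside 38.7%. The median log2 fold change, palmitate over control, was 0.07 over the 10 genes and 0.02 over all genes tested.

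Across genes, libraries carrying the same replicate number in both groups deviated together from their group means, but weakly (correlations of 0.23, 0.13 and 0.15). The labels do not state that they are paired. A fit with the replicate number as a block was read beside the first. That fit called 3 of the 10 genes, with Relb and Tnfaip3 higher and Birc3 lower in palmitate, beside 33.1% of all genes (16.5% higher and 16.6% lower). CPM values of the groups did not overlap for 2 of the 10 genes, Relb (higher) and Birc3 (lower), beside 42.9% of all genes, 21.6% higher and 21.2% lower. All 3 same-number pairs went one way for 5 genes. Relb, Nfkbia and Tnfaip3 were higher in palmitate in each pair, as were 32.4% of all genes, and Nfkb1 and Birc3 were lower in each pair, as were 30.1% of all genes. Whether the libraries stem from separate mice or cultures is not stated in the labels. The p-values therefore reflect how far these libraries spread, and that spread may be technical.

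**Figure D1:**
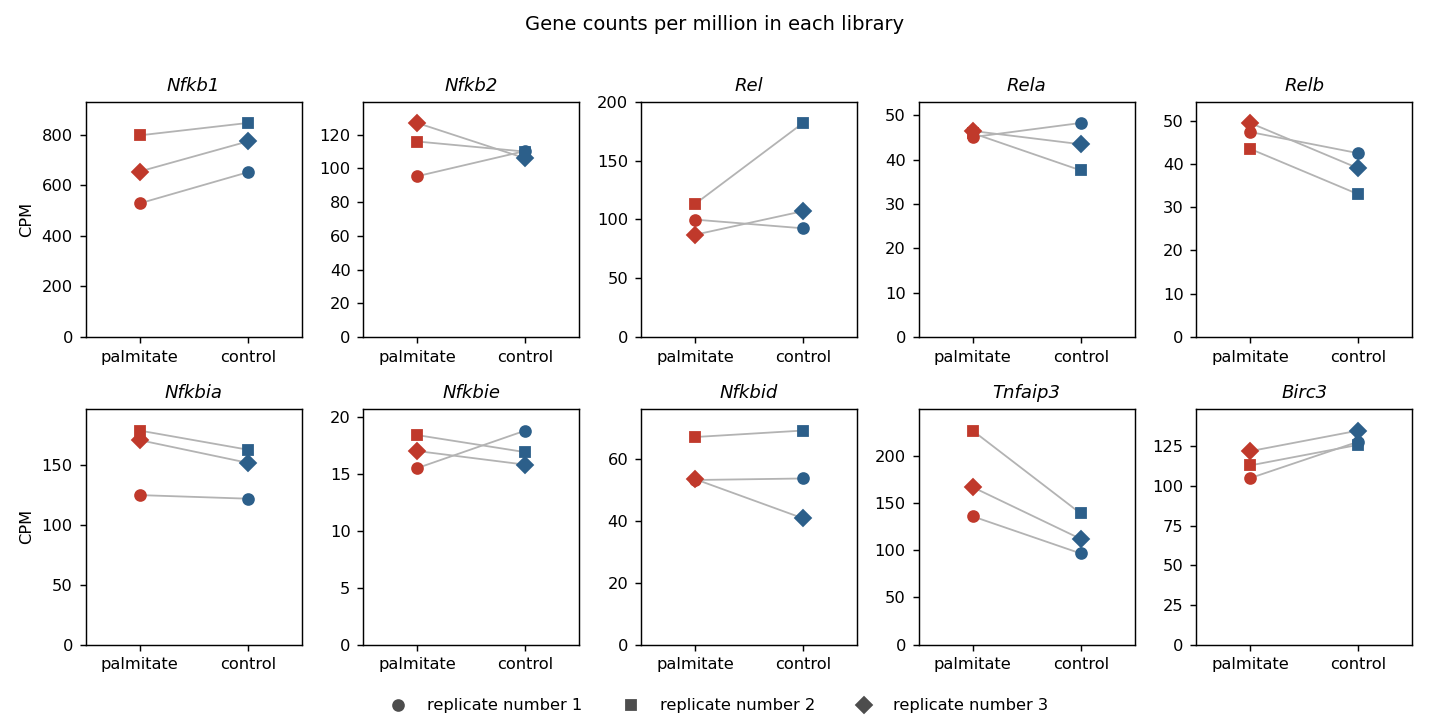
CPM of each of the 10 genes (vertical axes, starting at 0) in the 3 palmitate libraries (left) and the 3 control libraries (right), with lines joining libraries of the same replicate number. Tnfaip3 and Relb lie higher and Birc3 lower with palmitate in each of the 3 joined pairs, while Rel differs mainly through control library 2 at 182 CPM.

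Among the subunits, Relb was the one gene called in the fit with the block. Relb pairs mostly with the product of Nfkb2 in the slower, noncanonical arm of the pathway. It had 47.4, 43.5 and 49.5 CPM in palmitate libraries 1 to 3, against 42.5, 33.0 and 39.0 CPM in control libraries 1 to 3. Every palmitate value lay above every control value, though the lowest palmitate library exceeded the highest control library by little. The log2 fold change was 0.29 ± 0.11 (SE; 95% interval 0.04 to 0.54; adjusted p = 0.0859 by edgeR's quasi-likelihood test), and with the block it was 0.30 ± 0.08 (adjusted p = 0.026). Without control library 1 the gene was also called without the block (0.37, adjusted p = 0.0365). On the TPM scale the Relb groups overlapped, at 21.3 to 25.5 TPM with palmitate and 17 to 21.4 TPM in control.

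Nfkb2 encodes the precursor of the p52 subunit, which acts as an inhibitor until it is processed. In the count matrix it had 95.4, 116 and 127 CPM with palmitate, against 110.4, 110 and 106 CPM in control. The palmitate libraries lay on both sides of the control libraries. Its log2 fold change was 0.05 ± 0.10 (95% interval −0.19 to 0.28, adjusted p = 0.757). The matrix held 77% of the reads that the transcript tables assign to Nfkb2. On the TPM sums, which use all transcripts and also correct for length, the groups parted. They had 55.9, 61.9 and 61.2 TPM in palmitate libraries 1 to 3 against 52, 52.2 and 49.1 TPM in control libraries 1 to 3. The parts of the added transcripts and of the length correction in that separation were not tested. An edgeR fit to the summed transcript reads gave 0.17 (adjusted p = 0.225), so Nfkb2 was not called on either table.

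Nfkb1 was on the low side in palmitate, with 528, 797 and 654 CPM against 651, 846 and 773 CPM in control. The groups overlapped, but each palmitate library lay below the control library of the same number, at 0.811, 0.943 and 0.846 of its level. The log2 fold change was −0.20 ± 0.16 (95% interval −0.57 to 0.17, adjusted p = 0.4), and it ran from −0.36 without palmitate library 2 to −0.07 without palmitate library 1. With the block it was −0.21 ± 0.07 (adjusted p = 0.0549), and in the transcript sums with the block, a setting added after the data were seen, Nfkb1 was called lower (−0.22, adjusted p = 0.0314).

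Rela, the subunit with the strong activation domain that carries most of the classical response, had 45.1, 46.0 and 46.5 CPM with palmitate, against 48.3, 37.6 and 43.5 CPM in control. The palmitate values lay inside the control range. Its log2 fold change was 0.09 ± 0.10 (95% interval −0.14 to 0.32, adjusted p = 0.556), and with length offsets on the transcript sums the sign turned (−0.13, adjusted p = 0.49). Rel encodes c-Rel, the subunit most restricted to lymphocytes. It had 99.8, 113 and 86.9 CPM with palmitate, against 92.4, 182 and 107 CPM in control. The estimate of −0.35 ± 0.27 (95% interval −1.0 to 0.30, adjusted p = 0.383) rested on control library 2, which held 182 CPM, and was −0.00 without it.

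The 3 IkB genes gave no call in any of the 16 alternative settings. Nfkbia encodes IkB-alpha, the inhibitor that is destroyed and remade at each round of signalling. It had 125, 179 and 171 CPM with palmitate, against 122, 163 and 152 CPM in control. The groups overlapped, and each palmitate library exceeded its same-number control by 1.02 to 1.12 times. The log2 fold change was 0.12 ± 0.16 (95% interval −0.25 to 0.49, adjusted p = 0.609), and 0.11 with the block (adjusted p = 0.188). Without 1 library it ran between 0.01 and 0.26.

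Nfkbie, which encodes IkB-epsilon, had 15.5, 18.4 and 17.0 CPM with palmitate, against 18.8, 16.9 and 15.8 CPM in control. The ranges nearly coincided, with a log2 fold change of −0.02 ± 0.11 (95% interval −0.27 to 0.24, adjusted p = 0.917), and the matrix held 74.6% of its transcript reads. Its sign turned when palmitate library 1 (0.04) or control library 1 (0.05) was left out. Nfkbid encodes IkB-NS, an atypical nuclear IkB protein that works on NF-kappaB at its target genes. It had 53.2, 67.1 and 53.5 CPM with palmitate, against 53.7, 69.2 and 40.8 CPM in control. The groups overlapped, the log2 fold change was 0.09 ± 0.19 (95% interval −0.37 to 0.54, adjusted p = 0.77), and its sign turned without palmitate library 2 (−0.04) or control library 3 (−0.09).

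Tnfaip3 showed the largest difference of the 10. It encodes A20, an enzyme that removes and adds ubiquitin chains on signalling proteins and so damps NF-kappaB. Its CPM values were 136, 227 and 167 in palmitate libraries 1 to 3, against 96.6, 139 and 112 in control libraries 1 to 3. Palmitate library 1 lay just below control library 2, so the groups overlapped, but each palmitate library was 1.4, 1.63 and 1.5 times its same-number control. The fold was 1.53 and the log2 fold change 0.61 ± 0.21 (95% interval 0.11 to 1.11, adjusted p = 0.0819 by edgeR's quasi-likelihood test). With the block the estimate was 0.59 ± 0.07 (95% interval 0.44 to 0.75, adjusted p = 0.000999), and DESeq2 called it without a block (0.59, adjusted p = 0.0106). In the 6 fits that each left out 1 library the estimate lay between 0.38 and 0.76, with adjusted p between 0.0511 and 0.215. On the TPM scale the Tnfaip3 groups did not overlap, at 50, 78.1 and 52.8 TPM with palmitate against 35, 44 and 36.3 TPM in control.

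Birc3 encodes cIAP2, a ubiquitin ligase that works at TNF-family receptors, blocks cell death and holds the noncanonical arm in check. It had 105, 113 and 122 CPM with palmitate, against 128, 126 and 135 CPM in control. Every palmitate value was below every control value, and each palmitate library held 0.825, 0.894 and 0.901 of its same-number control. The log2 fold change was −0.20 ± 0.07 (95% interval −0.37 to −0.02, adjusted p = 0.093), and with the block −0.20 ± 0.06 (adjusted p = 0.041). On the TPM scale the Birc3 groups overlapped, at 112 to 129 TPM with palmitate and 125 to 134 TPM in control. Birc3 has a close paralogue, Birc2, next to which it lies in the genome, and whether reads were shared between them, and how Salmon divided any, was not tested.

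**Figure D2:**
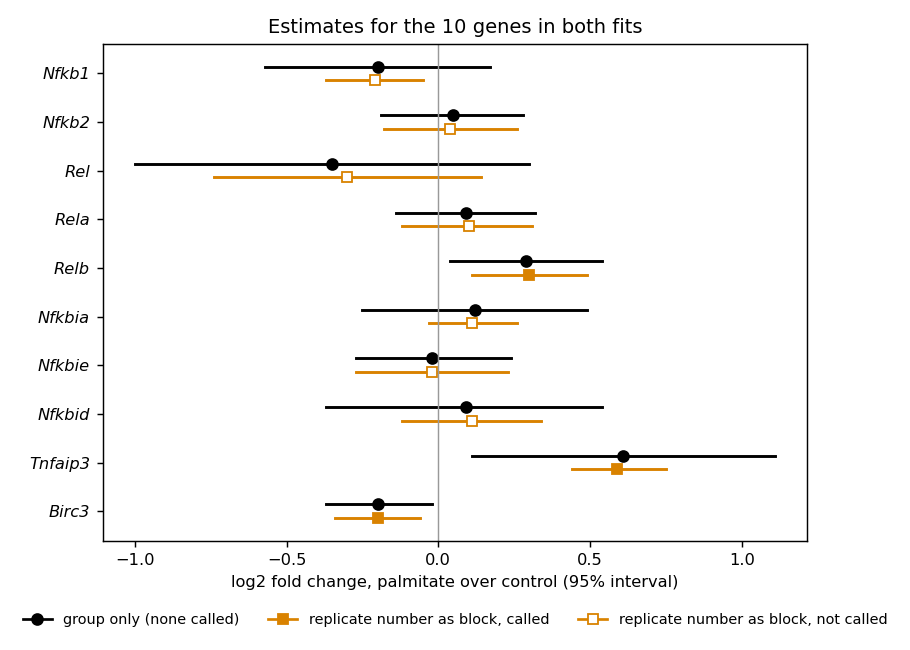
Log2 fold change, palmitate over control, of each of the 10 genes with its 95% interval, from the fit on the group alone (black circles) and the fit with the replicate number as a block (orange squares, filled where called). Filled squares mark Relb and Tnfaip3 on the high side and Birc3 on the low side, and the Tnfaip3 interval narrows to 0.44 to 0.75 with the block.

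The transcript tables show which RNA of each gene carried these values. They list 58 transcripts of the 10 genes, of which 38 passed the filter. By edgeR's quasi-likelihood test none of the 38 was called after Benjamini-Hochberg adjustment, with or without the block, and neither was any of the 39731 transcripts tested (0%). At an unadjusted p under 0.05 there were 4 of the 38 on the high side and 3 on the low side, beside 7.41% and 8.44% of all transcripts tested. The CPM groups did not overlap for 6 transcripts that were higher in palmitate and 5 that were lower, beside 12.7% and 11.6% of all transcripts. How Salmon divided reads between overlapping transcripts is not modelled in these tests.

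For Tnfaip3 the values were carried by Tnfaip3-202, the protein-coding transcript with 83.6% of the reads, at 96.8, 169 and 134 CPM with palmitate against 68.5, 114 and 87.5 CPM in control. Its log2 fold change of 0.57 ± 0.26 was close to that of the gene. Tnfaip3-205, annotated as keeping an intron and holding 13.3% of the reads, had 18, 26.4 and 15.2 CPM with palmitate against 14, 16.2 and 14.2 CPM in control. The share of reads on annotated retained-intron transcripts of Tnfaip3 averaged 14% with palmitate and 14.9% in control, and the groups overlapped.

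Birc3-201, the main coding transcript of Birc3 with 83.4% of the reads, had 74.4, 81.2 and 91.9 CPM with palmitate against 94.3, 104 and 108 CPM in control. All 3 palmitate values were below all 3 control values (log2 fold change −0.31 ± 0.11, unadjusted p = 0.0261, adjusted p = 0.242). A minor coding transcript, Birc3-202, was on the other side, with 8.96, 7.68 and 7.08 CPM with palmitate against 6.85, 4.61 and 5.86 CPM in control. The share of Birc3 reads on Birc3-201 was 80.1%, 80.8% and 82.6% with palmitate and 83.5%, 86.2% and 85.5% in control, which is a difference of −3.93 percentage points (exact two-sided permutation test, p = 0.1, the smallest p that 3 against 3 libraries allow). As a share of TPM the difference was −2.91 points (exact p = 0.1), and the TPM share of Nfkbie-201 gave the same smallest p with a difference of 3.66 points. The share of such splits among all genes was not computed.

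For Nfkb2 the matrix left out part of the reads. A single combination of transcripts matched the matrix value to within 1.5 reads in every library, and for Nfkb2 it held Nfkb2-201 and Nfkb2-202 and left out 4 others. One of those left out, the coding transcript Nfkb2-204 with 10.3% of the reads, had 14.2, 33.4 and 9.53 CPM with palmitate against 8.19, 9.07 and 5.44 CPM in control. Each palmitate value was above each control value, with most of the excess in palmitate library 2 (log2 fold change 1.33 ± 0.50, 95% interval 0.11 to 2.56, adjusted p = 0.279). Nfkb2-201, with 56.8% of the reads, gave 73.3, 67.9 and 86.6 CPM with palmitate against 74.3, 75.8 and 69.4 CPM in control, and its groups overlapped. Nfkb2-202 gave 10.8, 35.5 and 29.3 CPM with palmitate against 23.4, 29.6 and 30.0 CPM in control.

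The 3 main coding transcripts of Nfkbid, whose gene estimate was 0.09, did not all lie on the same side. Nfkbid-201 was higher in all 3 palmitate libraries, at 16.9, 18.4 and 22.1 CPM against 14.3, 10 and 5.83 CPM in control (log2 fold change 0.93 ± 0.33, unadjusted p = 0.0284, adjusted p = 0.251). Nfkbid-203 had 19.1, 18.2 and 14.1 CPM with palmitate against 9.01, 33.6 and 21.8 CPM in control, and its groups overlapped. Relb reads split between Relb-202 and Relb-201 in an uneven way, with Relb-202 at 30.8, 26 and 35.9 CPM with palmitate against 12, 26.9 and 27.2 CPM in control, and Relb-201 at 4.8, 5.54 and 0 CPM with palmitate against 19.4, 0 and 3.16 CPM in control. In control library 1 Relb-201 held 51.4% of the gene's reads and in control library 2 it held 0%, so the 2 transcripts are read here as a sum. Nfkbie-203, a coding transcript left out of the matrix, was listed at 0 reads in all 3 palmitate libraries and at 38.52, 19.71 and 45.03 reads in the control libraries. It held 3.01% of the gene's reads and was not called (adjusted p = 0.063, and 0.206 with the block). Its fitted log2 fold change of −7.98 ± 0.85 rests on 0 reads with palmitate, so neither the size nor the error is a measured fold.

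Rel and Rela rested almost wholly on 1 transcript, with 100% of the reads on Rel-201 and 92.8% on Rela-201, and Nfkbia had 99.5% on Nfkbia-201. Nfkb1-201 held 82.5% of the Nfkb1 reads and stood at 372, 593 and 489.6 CPM with palmitate against 475, 696 and 637 CPM in control, and its groups overlapped. Nfkb1-203, a coding transcript with 7.29% of the reads, had 37.8, 42.1 and 43.9 CPM with palmitate against 47.6, 69.2 and 48.1 CPM in control, without overlap (unadjusted p = 0.0481, adjusted p = 0.31). A minor retained-intron transcript, Nfkb1-202, had 12.1, 14.4 and 16.8 CPM with palmitate against 10.1, 10.5 and 9.65 CPM in control (unadjusted p = 0.0148, adjusted p = 0.193). Nfkb1-206, a coding transcript with 1.8% of the reads, was also higher with palmitate without overlap. It had 14.7, 24.5 and 17.4 CPM with palmitate against 10.8, 6.23 and 0 CPM in control (adjusted p = 0.596).

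**Figure D3:**
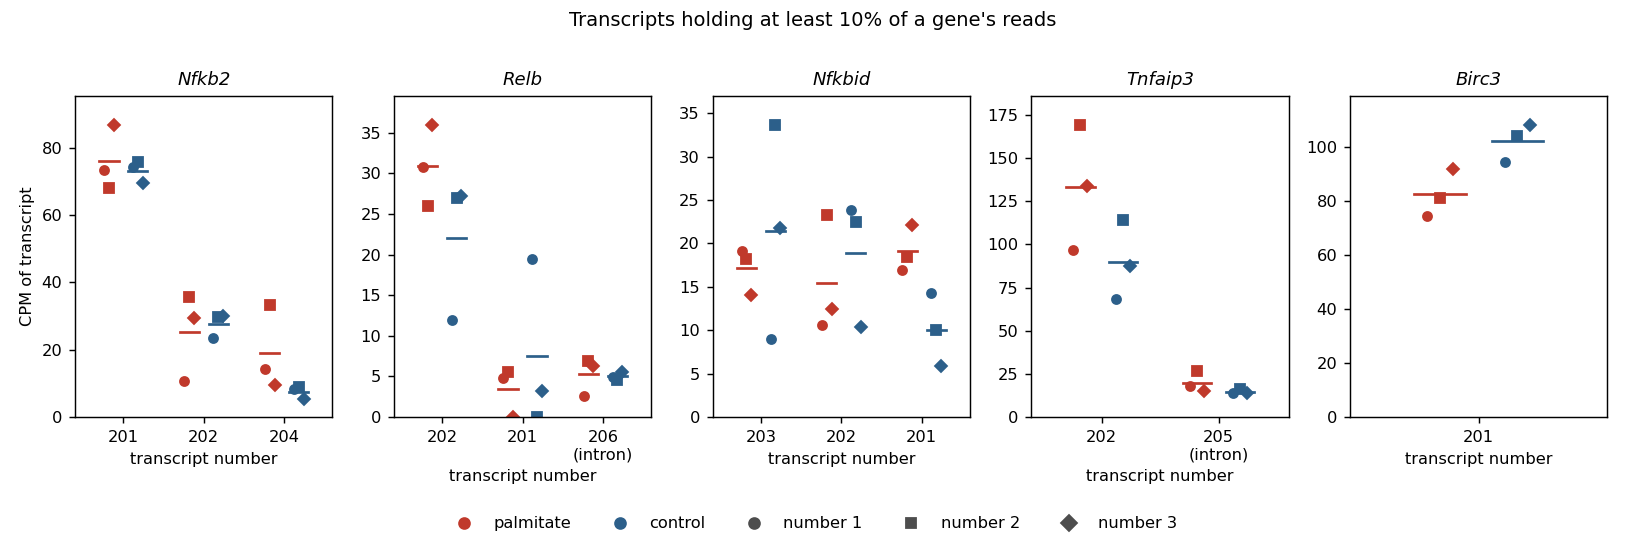
CPM of the transcripts that hold at least 10% of a gene's reads, for 5 of the genes, with palmitate in red left of control in blue, horizontal lines at the group means and marker shapes for the replicate numbers. Nfkb2-204 and Nfkbid-201 lie higher and Birc3-201 lower with palmitate without overlap, and Tnfaip3-202 is higher in each same-number pair. Relb-202 and Relb-201 trade places among the control libraries, and the order of the Nfkbid transcripts changes between libraries of the same group.

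The genes around these 10 were read from 8 lists of the pathway, 134 tested genes in all. Of the 134, 19 rose and 10 fell with palmitate, which is 21.6% called, beside 22.9% of all genes tested, and their median log2 fold change was 0.08. With the replicate block 34 were called higher and 23 lower, beside 33.1% of all genes. The fit without control library 3 called 7 of the 134 and the fit without control library 1 called 41. Over all genes the 2759 calls became 690 without control library 3 and 3433 without control library 1. No direction is therefore given for the pathway as a whole, and the lists are described one by one.

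Of 13 IKK kinases and activators, 4 rose and 0 fell, beside 11.1% and 11.7% of all genes. Their median log2 fold change was 0.21. The block gave 6 higher and 1 lower, beside 16.5% and 16.6% of all genes. Ikbke, an IKK-related kinase that is itself inducible, had 67.4, 60.0 and 55.4 CPM with palmitate against 39.1, 23.3 and 25.1 CPM in control, and rose by 1.06 ± 0.20 on the log2 scale (adjusted p = 0.0129). Its lowest palmitate library was well above its highest control library. Map3k14, the kinase that starts the noncanonical arm and is kept low by cIAP proteins, had 27.4, 26.2 and 29.8 CPM with palmitate against 20.2, 16.4 and 20.2 CPM in control (0.56 ± 0.11, adjusted p = 0.0123). Ikbkg, the scaffold of the IKK complex, rose by 0.38 ± 0.07 (adjusted p = 0.00952), and the upstream kinase gene Map3k3 rose by 0.48 ± 0.08 (adjusted p = 0.00839). The calls of Ikbkg and Map3k14 held in 6 of 6 fits that each left out 1 library, and those of Ikbke (adjusted p = 0.0588) and Map3k3 (adjusted p = 0.0513) were lost without control library 3. The catalytic kinases of the complex were not called. Ikbkb had 107, 99.4 and 104 CPM with palmitate against 99.4, 83.8 and 85.7 CPM in control (0.21 ± 0.08, adjusted p = 0.108), and Chuk had 167, 172 and 181 CPM with palmitate against 179, 220.2 and 212 CPM in control (−0.24 ± 0.09, adjusted p = 0.092). With the block they were called in opposite directions (adjusted p = 0.0407 for Ikbkb and 0.038 for Chuk), and so they were without control library 1 (0.28 for Ikbkb and −0.32 for Chuk).

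Of 13 genes of the branch from the antigen receptor, 6 rose and 0 fell, beside 11.1% and 11.7% of all genes. Their median was 0.29. Without control library 3, 0 of the 13 were called, in a fit with 690 calls over all genes in place of 2759. At an unadjusted p under 0.05 there were 7 higher and 0 lower, beside 18.6% and 19.1% of all genes. The limma-voom fit called 4 of the 13, beside 22.0% of all genes. Of the CD8 T cell markers given above, the 6 called higher include the receptor's own CD3 chains, and the part of this in the list's values was not tested. Prkcq, the protein kinase C that links the receptor to NF-kappaB, had 253, 241 and 243 CPM with palmitate against 198, 181 and 193 CPM in control (0.36 ± 0.07, adjusted p = 0.00995; 0.0539 without control library 3). Zap70, the kinase bound to the receptor, had 94.5, 79.7 and 82.8 CPM with palmitate against 71.8, 54.7 and 60.8 CPM in control (0.46 ± 0.11, adjusted p = 0.0255). Its groups did not overlap, but its call was kept in 2 of 6 leave-one-out fits and was lost without palmitate library 1, palmitate library 3, control library 2 or control library 3 (adjusted p 0.0644 to 0.101). Cd28, a costimulatory receptor, was called higher just under the threshold (0.42, adjusted p = 0.0499). So was Plcg1, a phospholipase that acts downstream of the receptor (0.42, adjusted p = 0.0487). Both were named after their values were seen, and neither was called without control library 3.

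None of the 10 TRAF and cIAP adaptor genes was called by edgeR's quasi-likelihood test, by DESeq2 or by limma-voom, and their median was 0.08. At an unadjusted p under 0.05 there were 3 of the 10, beside 37.8% of all genes. With the block 2 were called higher, beside 16.5% of all genes. The 2 were Traf3 (0.29) and Traf6 (0.21), named after their values were seen. The 3 other IkB-like genes gave 1 rise, beside 11.1% of all genes. Nfkbiz, an inducible nuclear IkB gene, had 48.6, 41.1 and 43.8 CPM with palmitate against 34.7, 37.5 and 33.7 CPM in control (0.34 ± 0.09, adjusted p = 0.0351). Among the 6 leave-one-out fits it was called in 1, the one without palmitate library 2, and its adjusted p reached 0.136 without control library 3. Bcl3 had 3.95, 3.46 and 5.31 CPM with palmitate against 6.4, 5.45 and 6.31 CPM in control, and its groups did not overlap (−0.52 ± 0.20, adjusted p = 0.091; 0.0435 with the block). Nfkbib, a classical IkB gene, stood at −0.11 ± 0.15 (adjusted p = 0.631).

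Among 22 ubiquitin ligases and negative regulators, 3 rose and 2 fell, beside 11.1% and 11.7% of all genes. The block gave 4 higher and 5 lower, beside 16.5% and 16.6% of all genes. Zc3h12a, which encodes Regnase-1, an enzyme that destroys inflammatory mRNAs, had 38.4, 53.9 and 39.1 CPM with palmitate against 75.1, 90.3 and 88.1 CPM in control. All palmitate values were below all control values, and it fell by 0.95 ± 0.14 on the log2 scale (adjusted p = 0.00622). Cops5, a subunit of the COP9 signalosome, fell by 0.37 ± 0.06 (adjusted p = 0.00764), and N4bp1 rose by 0.56 ± 0.09 (adjusted p = 0.00627). All 3 calls held in 6 of 6 leave-one-out fits. Cyld, a deubiquitinase that works on the same chains as A20, rose by 0.61 ± 0.13 (adjusted p = 0.0166). Only part of its transcript reads (14.8%) stood in the matrix, and in the transcript sums the estimate was 0.31 (adjusted p = 0.0257). Its call was lost without palmitate library 1, palmitate library 3 or control library 3 (adjusted p up to 0.0784).

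Of 16 receptors that feed NF-kappaB, 1 rose and 2 fell, beside 11.1% and 11.7% of all genes. The block gave 6 higher and 4 lower, beside 16.5% and 16.6% of all genes. Cd27, a costimulatory receptor of naive and memory T cells, had 121, 110.1 and 111 CPM with palmitate against 81.1, 59.3 and 69.5 CPM in control (0.71 ± 0.11, adjusted p = 0.00632; kept in 6 of 6 fits). Tnfrsf9, which encodes the activation-induced receptor 4-1BB, had 512, 553 and 514 CPM with palmitate against 654, 780.4 and 783 CPM in control (−0.49 ± 0.09, adjusted p = 0.00987). Il1rl1, which encodes the interleukin-33 receptor, fell by 0.63 ± 0.12 (adjusted p = 0.0119). Without control library 3 the adjusted p was 0.0545 for Tnfrsf9 and 0.0528 for Il1rl1.

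In the Toll-like receptor branch 1 of 12 tested genes rose and 2 fell, beside 11.1% and 11.7% of all genes. The block gave 3 higher and 3 lower, beside 16.5% and 16.6% of all genes. Tlr7 had 13.9, 22.8 and 21.4 CPM with palmitate against 9.98, 12.3 and 10.7 CPM in control (0.81 ± 0.19, adjusted p = 0.0221). The adaptor gene Tirap had 6.01, 8.49 and 8.05 CPM with palmitate against 12.2, 20.1 and 16.4 CPM in control (−1.11 ± 0.21, adjusted p = 0.0108; 0.0503 without control library 3). Myd88, the common adaptor, was just under the threshold (−0.33 ± 0.10, adjusted p = 0.0467), kept its call in 0 of 6 leave-one-out fits (adjusted p 0.0556 to 0.13) and was not called by limma-voom (adjusted p = 0.0516). The call of Tlr7 was lost without palmitate library 2, palmitate library 3 or control library 3 (adjusted p 0.066 to 0.0882). The myeloid markers given above summed to 6.2 CPM or less in every library. Of the B cell markers 1 of 7 tested (Cd79a) was called higher with palmitate, and 0 lower. Of the plasma cell markers 3 of 8 tested (Jchain, Igha and Ighg2b) were called higher, and 0 lower. The part of any of these cell types in the values of this branch was not tested.

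Textbook targets of NF-kappaB went both ways, with 3 of 45 risen, 4 fallen and a median of −0.03. Their 15.6% called is to be read beside 22.9% of all genes. The block gave 6 higher and 9 lower, beside 16.5% and 16.6% of all genes. Irf1, a transcription factor also induced by interferon, had 303, 304 and 338 CPM with palmitate against 227, 142 and 175 CPM in control (0.80 ± 0.16, adjusted p = 0.0146). Tap1, a peptide transporter of antigen presentation, rose by 0.31 ± 0.08 (adjusted p = 0.0229). Sod2, the mitochondrial superoxide dismutase, had 53.3, 54.4 and 56.2 CPM with palmitate against 71.8, 75.4 and 71.6 CPM in control (−0.42 ± 0.07, adjusted p = 0.00691; kept in 6 of 6 fits), with 50.6% of its reads in the matrix. Marcksl1 fell by 0.49 ± 0.11 (adjusted p = 0.0193). The call of Irf1 was lost without palmitate library 3 or control library 3 (adjusted p up to 0.0688), that of Marcksl1 without control library 2 or 3 (up to 0.0792), and that of Tap1 in all leave-one-out fits but the one without control library 1 (up to 0.0911).

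**Figure D4:**
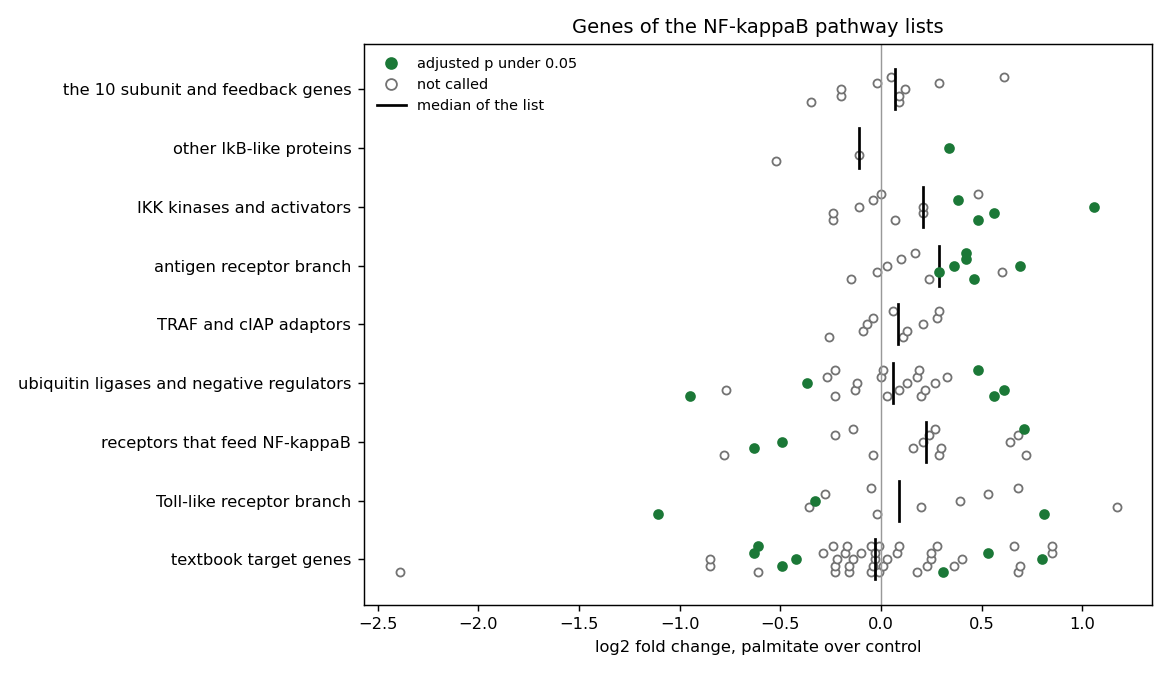
Log2 fold change, palmitate over control, of every tested gene of the 10 and of the 8 pathway lists (1 row per list, points spread vertically for legibility), filled where the adjusted p was under 0.05, with a bar at each list's median. No point is filled among the 10 genes. For the IKK and antigen receptor lists 4 and 6 are filled on the high side, beside 11.1% of all genes tested. The target genes have filled points on both sides.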

How the data were processed

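RNA was sequenced from 6 libraries, 3 palmitate and 3 control. The submitters' processing notes list the tools Salmon 1.10.0, Trim Galore 0.6.10 and DESeq 1.42.0 with build GRCm39. Whether counting used strand is not given here in any source. The authors deposited whole-number counts per gene in 1 matrix, and for each library a Salmon table with expected counts and TPM per transcript, the TPM scaled to a common total by the authors. Total counts per library were 16724588 to 29362276, which limits the precision of low genes.

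Symbols were looked up in GENCODE M21 and a gene name table, and 29134 of 29370 matrix genes had one. M21 belongs to an earlier build, so the only coordinates printed are those of the RefSeq promoters. A gene was found for 114857 of 116224 transcripts, with 99.45% to 99.49% of the reads. All sample columns were used (0 left over) and 0 entries lacked a gene name.

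The main test was edgeR 4.0.16 (R 4.3.3) on the deposited counts: TMM scaling, edgeR's low-count filter, a robust quasi-likelihood fit with the group as its one term, two-sided p-values, and Benjamini-Hochberg adjustment over all genes tested, with a threshold of 0.05. It gives every adjusted p that names no other test. CPM used TMM-scaled library sizes. Transcript reads were rounded to whole numbers and fitted alike. Intervals are 95%. The code was tested on simulated data. Replicates differed beyond sampling noise (chi-square per gene 11.2 to 37.3).

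The labels of both groups carry replicate numbers 1 to 3. Across genes, the deviations of same-number libraries from their group means had correlations of 0.23, 0.13 and 0.15, and those of other pairs −0.18 to 0.061. Deviations from a group mean cancel over the group, so the values of other pairs are no separate support for a pairing. The labels state none, and it was read from these same data. All 3 same-number values were over 0.1, and the number was tried as a block among the alternatives. The fit with the block is given where it changes a call.

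The 10 genes and all lists were chosen with earlier results of these data known. The genes named were the 10, up to 4 called genes of each pathway list by smallest adjusted p, Nfkbib, Nfkbiz, Bcl3, Chuk, Ikbkb, Ikbkg and Map3k14, and transcripts with at least 10% of a gene's reads; others were named after their values were seen. Some genes that this rule selects are not reported here. Alternatives were the replicate block, each library left out, gene sums of transcript reads with and without length offsets, limma-voom (limma 3.58.1), DESeq2 1.42.0, RLE and upper-quartile scaling, a floor of 5 CPM on the mean, and no filter. Transcript shares were compared with an exact permutation test (scipy 1.17.1).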

Additional observations from a re-analysis of the deposited data

How the results depend on the processing

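Without a block, the 10 genes gave 0 calls under all scaling and filter settings, limma-voom and the transcript sums, 1 with DESeq2 (Tnfaip3) and 0 to 1 when 1 library was left out. The replicate block gave 3, and 4 on the transcript sums, a setting chosen after seeing the data. For the pathway lists the main count of 29 became 57 with the replicate block and 68 with the block on transcript sums, and 7 to 41 when 1 library was left out. For all genes the main count of 2759 became 5065 with the block on transcript sums and 690 to 3433 when 1 library was left out. No transcript was called (0) in the main fit or when 1 library was left out, against 225 with no filter on low counts. Besides these counts, the replicate block changed the calls of Relb, Tnfaip3, Birc3, Bcl3, Chuk, Ikbkb, Traf3 and Traf6 and of no other gene named in the text. The causes were not tested.

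Some small estimates changed sign. Those were Rela with length offsets (−0.13), Nfkbie with upper-quartile scaling (0.04) and a minimum mean of 5 CPM (0.01), and, when 1 library was left out, Nfkb2 (−0.05 to 0.15), Rela (−0.01 to 0.17), Nfkbie (−0.09 to 0.05), Nfkbid (−0.09 to 0.29) and Nfkbib (−0.30 to 0.01). Of the other single-gene values under an alternative, 142 kept their side for the 10 genes and 9 gained a call; for the pathway genes 372 kept it, 8 gained a call and 51 lost one. None of the differences in transcript share changed sign. With 3 libraries a group, the standard errors of the 10 log2 fold changes ran from 0.07 (Birc3) to 0.27 (Rel). A gene that was not called may still differ between the groups by an amount inside its interval.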

Other observations

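Marker lists of further cell types that the libraries could hold were summed as well. The plasma cell list summed to 259 to 295 CPM in the palmitate libraries and 251 to 298 CPM in the control libraries, with Derl3 and Tnfrsf17 at 0 in every library. Most of that sum was Xbp1, which is not particular to plasma cells, at 217 to 237 CPM with palmitate and 233 to 270 CPM in control. The 3 of 8 tested genes called higher were Jchain, at 6.78 to 11.8 CPM with palmitate and 1.24 to 2.5 CPM in control, Igha, at 10.8 to 28.5 CPM with palmitate and 0.802 to 2.55 CPM in control, and Ighg2b, at 1.77 to 3.97 CPM with palmitate and 0.16 to 1.06 CPM in control. The regulatory T cell list summed to 487 to 596 CPM with palmitate and 511 to 976 CPM in control (0 of 4 tested genes called). Most of that sum was Il2ra, at 329 to 519 CPM over all libraries, and Ctla4, at 99.8 to 388 CPM. Ikzf2 stood at 42.7 to 66.7 CPM, and Foxp3 did not exceed 0.403 CPM. The dendritic cell list summed to 315 to 511 CPM with palmitate and 368 to 423 CPM in control (0 of 9 called). Most of that sum was Ccr7, at 264 to 428 CPM, and no other gene of the list exceeded 40.7 CPM. The CD4 T cell list summed to 3.58 to 6.6 CPM with palmitate and 1.96 to 2.77 CPM in control (Zbtb7b called higher), and the erythroid list to 5.85 to 11.3 CPM with palmitate and 1.52 to 3.96 CPM in control (Hbb-bs called higher). The pancreatic acinar list summed to 2.74 to 3.76 CPM with palmitate and 1.51 to 2.15 CPM in control (Try5 called higher), and the pancreatic endocrine list to 0.118 to 0.298 CPM with palmitate and 0.12 to 0.241 CPM in control, with Ins1, Ins2, Sst and Iapp at 0 in every library. The endothelial and stromal list summed to 47.1 to 64.2 CPM with palmitate and 35.8 to 42.1 CPM in control, with Dcn at 0 in every library. That sum was nearly all Pecam1, which lymphocytes also express, at 46.3 to 63.7 CPM with palmitate and 35.4 to 41.8 CPM in control (called higher), and no other gene of the list exceeded 0.403 CPM.

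Of the pathway lists, 6 genes failed the filter on low counts, at no more than 0.59 CPM in any library. These were Ltbr, Tlr3, Tlr9, Cd14, Irak3 and Vcam1.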
